A study of Homo sapiens with 6 samples.

Results

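PEBP1, the human gene of the Raf kinase inhibitor protein RKIP, was followed together with CHUK and KEAP1, which encode proteins reported to bind RKIP. They are 3 of the 14884 genes that the array table could tie to 1 gene symbol, and each of them had a single probe, so that no choice between probes entered their values. The cells were THP-1, a long-established line from a human monocytic leukaemia, and their RNA was hybridised to Affymetrix Human Gene 2.0 ST arrays. The RKIP shRNA group held 3 arrays of cells transduced with a lentiviral hairpin vector against RKIP, and the control group held 3 arrays of cells carrying the empty form of the vector. All cells of both groups had been selected and kept in puromycin at 1.5 µg/mL, and 250 ng of total RNA per sample was labelled. The control vector carried no hairpin, so an effect of RKIP loss and an effect of expressing any hairpin cannot be told apart, and the labels give neither the hairpin's sequence nor the number of hairpins. The arrays are numbered as biological replicates without saying whether they came from separate transductions, so the p-values rest on the spread among arrays alone, and that spread may be technical. CHUK and KEAP1 were chosen with earlier results of the same arrays known, and they are the measured partners of RKIP that passed the test. Their p-values are therefore no independent evidence that partners of RKIP change.

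RKIP is a small phosphatidylethanolamine-binding protein. It restrains the signalling that leads to MEK, and it is also reported to bind kinases upstream of NF-kB. CHUK encodes IKK alpha, a kinase of the IKK complex that releases NF-kB from its inhibitors and that, under the kinase NIK, drives the processing of the NFKB2 precursor. KEAP1 is the substrate adaptor of a ubiquitin ligase built on CUL3. It marks the transcription factor NRF2 for degradation until oxidants or electrophiles modify its cysteines.

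The genes lie on different chromosomes in GRCh38.p14, the assembly of the RefSeq gene table used for names. PEBP1 runs from 118136124 to 118145584 on chromosome 12, CHUK from 100186319 to 100229596 on chromosome 10 and KEAP1 from 10486125 to 10503356 on chromosome 19. RefSeq lists 3 pseudogenes named after PEBP1, of which 0 had a named probe here. Whether the PEBP1 probe also reads them was not tested. CHUK has a divergent non-coding neighbour, CHUK-DT, whose start lies 64 bases from the start of CHUK on the opposite strand. No value under that name was used here.

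The sequences before the 3 gene starts are shown as a description. CHUK and KEAP1 were chosen with earlier results known, so their shared direction is no separate result, and PEBP1 is the transcript that the hairpin targets. Whether these sequences bear on any of the changes was not tested. Each line gives the 250 bases immediately before the RefSeq gene start, 5′ to 3′ on the gene's strand, from RefSeq in GRCh38.p14. Capitals mark the matches to any of 8 short motifs on either strand, so that a match on the opposite strand shows its complement, as CCGCCC for the Sp1 box.
PEBP1, chr12:118135874-118136123, plus strand: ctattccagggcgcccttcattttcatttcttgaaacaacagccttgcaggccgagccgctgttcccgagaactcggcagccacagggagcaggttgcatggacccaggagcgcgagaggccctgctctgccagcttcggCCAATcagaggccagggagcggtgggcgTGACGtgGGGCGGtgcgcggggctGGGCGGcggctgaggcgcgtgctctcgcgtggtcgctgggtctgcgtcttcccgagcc
CHUK, chr10:100229597-100229846, minus strand: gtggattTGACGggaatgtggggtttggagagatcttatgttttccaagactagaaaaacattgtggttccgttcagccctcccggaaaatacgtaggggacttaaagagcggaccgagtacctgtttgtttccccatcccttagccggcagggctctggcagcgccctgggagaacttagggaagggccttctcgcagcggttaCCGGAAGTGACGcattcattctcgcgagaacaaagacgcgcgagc
KEAP1, chr19:10503357-10503606, minus strand: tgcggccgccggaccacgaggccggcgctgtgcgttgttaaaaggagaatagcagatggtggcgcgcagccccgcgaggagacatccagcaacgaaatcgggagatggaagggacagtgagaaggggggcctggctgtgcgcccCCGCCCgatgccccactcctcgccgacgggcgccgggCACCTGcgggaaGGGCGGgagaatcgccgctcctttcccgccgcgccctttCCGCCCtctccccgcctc

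The motifs searched were the Sp1 box GGGCGG, the CCAAT box, the CRE core TGACG, the ETS site CCGGAAGT, the Snail-type E-box CACCTG, the AP-1 site TGANTCA, the core TGACNNNGC of the antioxidant response element and the kappaB consensus. The PEBP1 window held 2 Sp1 boxes, 1 CCAAT box and 1 CRE core, all within 110 bases of the start. The KEAP1 window held 3 Sp1 boxes and 1 Snail-type E-box. The CHUK window held 2 CRE cores and 1 ETS site, and the ETS site shares its last base with the CRE core nearer the start. In the same 250 bases of all 35116 RefSeq promoter windows, the Sp1 box was present in 42.6%, the CCAAT box in 32%, the CRE core in 21.2%, the Snail-type E-box in 17.5% and the ETS site in 3.42%. The AP-1 site (6.57% of windows), the antioxidant response element core (10.9%) and the kappaB sequence (0.179%) were not matched in these 3 windows. Variants of that kappaB sequence were not searched. RefSeq gives KEAP1 a second start, and the 250 bases before it held 2 matches to the antioxidant response element core. CHUK and KEAP1 shared none of the matched motifs. The GC content was 67.2% for PEBP1, 54.0% for CHUK and 70.4% for KEAP1, against a median of 58.0% over all windows.

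PEBP1 was lower in every RKIP shRNA array. Its log2 values were 8.25, 8.18 and 8.24 in RKIP shRNA cells, against 9.52, 9.77 and 9.75 in control cells. The groups did not overlap, as was so for 37.9% of all genes, and the highest RKIP shRNA array lay 1.27 below the lowest control array. Expressed against the control mean, the RKIP shRNA arrays retained 37.1%, 35.4% and 36.9% of the PEBP1 signal, while the control arrays themselves stood at 89.3%, 107% and 105%. The mean was 8.22 ± 0.04 in RKIP shRNA arrays and 9.68 ± 0.14 in control arrays (log2, SD, n = 3 each). The log2 change was -1.46 ± 0.09 (SE), so that 36.4% of control remained (95% interval 31.6% to 42.1%; limma, adjusted p = 0.000228 over all genes, of which 20.2% passed at 0.05). It was as low as 34.4% without control replicate 1, the control array with the least PEBP1, and at most 37.7% when any other single array was left out. The value is of the transcript, and the protein was not measured.

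**Figure D1:**
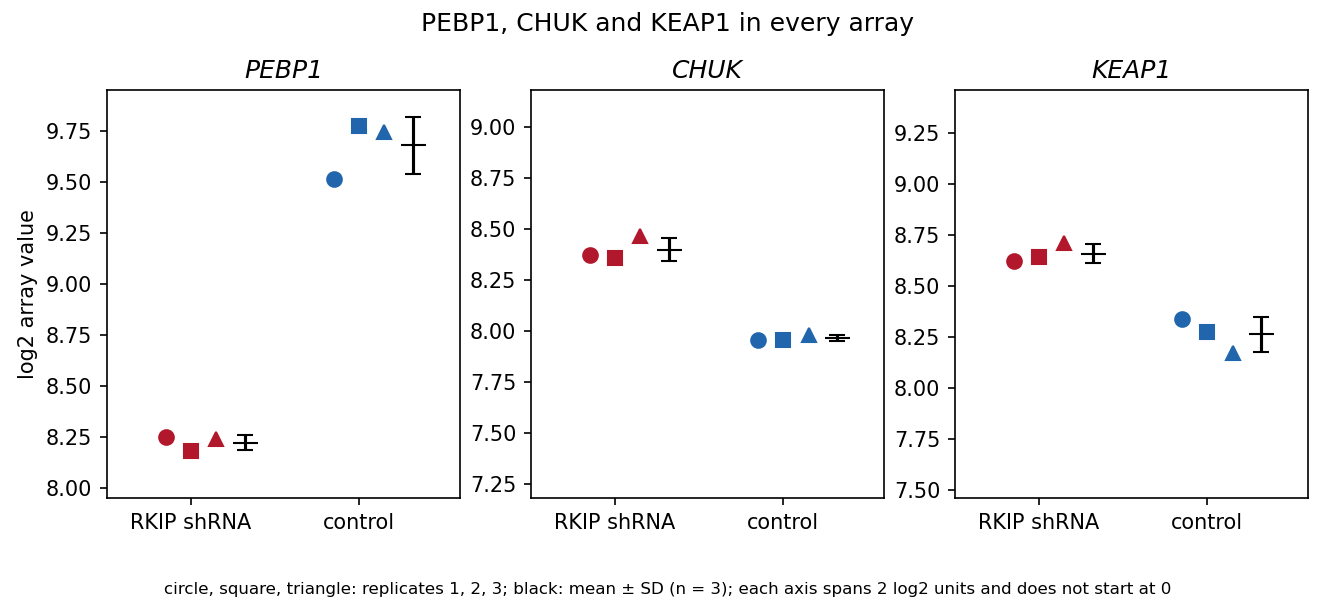
Log2 array value of PEBP1, CHUK and KEAP1 (vertical axis, 2 log2 units in each panel, not starting at 0) in the 3 RKIP shRNA arrays (red, left) and the 3 control arrays (blue, right), with the mean and SD of each group in black. PEBP1 is lower, and CHUK and KEAP1 are higher, in RKIP shRNA than in control arrays, with no overlap in any of the 3 genes.

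CHUK was higher in every RKIP shRNA array. It stood at 8.38, 8.36 and 8.46 in RKIP shRNA cells, against 7.96, 7.96 and 7.98 in control cells (log2 values). The mean was 8.40 ± 0.06 in RKIP shRNA arrays and 7.97 ± 0.02 in control arrays (SD, n = 3 each), and the gap between the groups was 0.37. CHUK rose by 0.43 ± 0.07 (log2, SE), or to 135% of control (95% interval 121% to 150%; limma, adjusted p = 0.00454).

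KEAP1 was also higher in every RKIP shRNA array. It stood at 8.62, 8.64 and 8.71 in RKIP shRNA cells and at 8.34, 8.28 and 8.17 in control cells (log2 values). Its mean was 8.66 ± 0.05 in RKIP shRNA arrays and 8.26 ± 0.08 in control arrays (SD, n = 3 each), and the gap between the groups was 0.28. KEAP1 rose by 0.40 ± 0.07 (log2, SE), or to 132% of control (95% interval 117% to 148%; limma, adjusted p = 0.00983). The change was smallest, at 128% of control, without control replicate 3, the control array with the least KEAP1, and largest, at 135%, without control replicate 1. Tested singly by an exact two-sided permutation test, each of the 3 genes reached p = 0.1, below which a design of 3 and 3 arrays cannot go. Over the 6 arrays PEBP1 correlated with CHUK at r = -0.976 and with KEAP1 at r = -0.975, and CHUK with KEAP1 at r = 0.960, a description of arrays that fall into 2 groups.

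The size of these changes has to be read against a table in which many genes differed. Over all 14884 genes, 20.2% passed the test at an adjusted p under 0.05, 10.0% as higher and 10.2% as lower, and the groups did not overlap for 37.9% of genes. Without control replicate 2 the number that passed was 1987, against 3010 with all arrays. The PEBP1 change was larger in absolute size than that of 99.7% of all genes, and 1.56% of the genes that passed changed more. CHUK and KEAP1 changed more than 87.5% and 85.1% of all genes, but among the genes that passed, 56.0% changed more than CHUK and 64.5% changed more than KEAP1. The median absolute log2 change was 0.15 over all genes and 0.46 over those that passed. CHUK ranked 848 and KEAP1 ranked 1042 among the genes that were higher in RKIP shRNA cells, whereas PEBP1 ranked 28 among those that were lower.

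**Figure D2:**
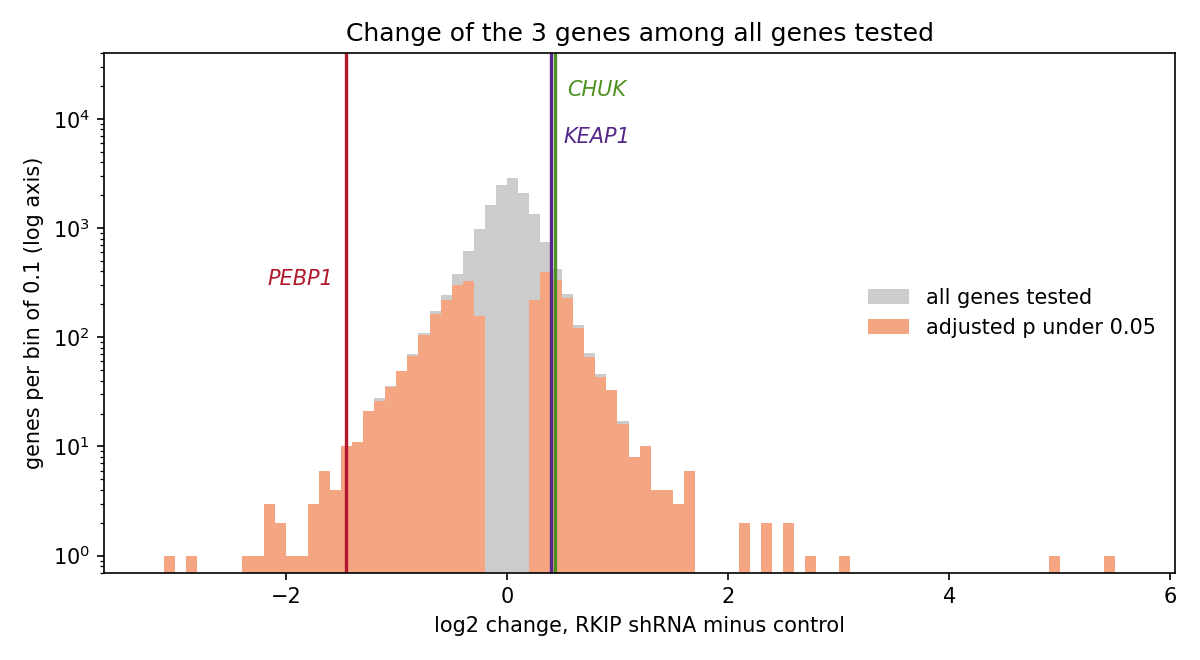
Number of genes (vertical log axis) by log2 change, RKIP shRNA minus control (horizontal axis, bins of 0.1), for all 14884 genes tested (grey) and for those at an adjusted p under 0.05 (orange). PEBP1, at -1.46, lies in the lower tail, while CHUK at 0.43 and KEAP1 at 0.40 lie close together on the right side, with many called genes beyond them.

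Markers of the line and of other cells were read in both groups. MPO, the myeloperoxidase of granulocytic and monocytic precursors, averaged 13.03 in RKIP shRNA and 12.76 in control cells, and SPI1, the myeloid transcription factor PU.1, averaged 9.27 in RKIP shRNA and 8.78 in control cells (log2 values). CD14, the monocyte receptor for lipopolysaccharide, was dimmer in both groups than the median row, 4.07, at 2.71 in RKIP shRNA and 2.77 in control cells. Of 9 measured monocytic markers 5 rose and 2 fell, or 77.8% called against 20.2% of all genes. The list was chosen with earlier results of these arrays known, so its share is no independent evidence about monocytic genes. LYZ, the lysozyme gene, and TYROBP, an adaptor gene of innate immune receptors, rose by 2.55 and 2.37 on the log2 scale. The other, dimmer LYZ probe rose by 3.43. CD68, a lysosomal protein gene of macrophages, rose by 0.37, while the costimulatory gene CD86 fell by 0.90 and CD4 by 0.35. On leaving out 1 array, CD86 passed in 6 of 6 fits, CD4 in 3 and MPO in 0. CD86 did not pass with an ordinary t statistic (adjusted p = 0.069). For the 9 genes, the summed signal was 13.39 to 13.48 in RKIP shRNA arrays and 12.93 to 13.01 in control arrays (log2 of the sum). Among markers of other cell types, 1 of 3 T cell genes (CD5) and 1 of 2 fibroblast genes (FN1) rose, and 1 of 2 B cell genes (VPREB3) and 1 of 5 epithelial genes (KRT18) fell, where 10.0% of all genes rose and 10.2% fell. FN1 was dimmer than the median row in control arrays and VPREB3 in RKIP shRNA arrays. On leaving out 1 array, FN1 passed in 6 of 6 fits, KRT18 in 2, and CD5 and VPREB3 in 1 each. KRT18 had another, dimmer probe (mean 3.69) with a log2 change of 0.02, and it did not pass when its probes were averaged. The erythroid factor gene KLF1 did not pass, with a log2 difference of 0.24. Summed signals were 6.33 to 6.48 in RKIP shRNA and 6.15 to 6.42 in control arrays for T cell genes, and for B cell genes 6.76 to 6.90 in RKIP shRNA and 6.95 to 7.07 in control arrays. For epithelial genes they were 8.37 to 8.44 in RKIP shRNA and 8.60 to 8.68 in control arrays, and for fibroblast genes 4.88 to 5.08 in RKIP shRNA and 4.21 to 4.31 in control arrays. Most of the epithelial sum came from the kept KRT18 probe, at 7.96 in RKIP shRNA and 8.26 in control arrays. EPCAM and DCN, defining genes of epithelial cells and fibroblasts, were in both groups dimmer than the median row. The part of these shifts in the CHUK and KEAP1 changes was not tested, and fewer cells of a kind and less RNA per cell cannot be told apart in bulk RNA.

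Among genes most like PEBP1 over the 6 arrays, the highest Pearson correlations were those of CNTRL, which encodes the centriolar protein centriolin (r = 1.00), PSTPIP2 (r = 1.00), a cytoskeletal adaptor of myeloid cells, CDK19, a kinase of the Mediator complex (r = 0.999), CARS1, the cytosolic cysteinyl-tRNA synthetase (r = 0.999), and NRN1, which encodes neuritin (r = 0.999). They fell by 0.46, 0.88, 0.46, 0.66 and 0.76 on the log2 scale. Most like CHUK were TLR4, the lipopolysaccharide receptor, LPCAT2, an enzyme of phospholipid remodelling, the RNA helicase gene DDX1, and the zinc finger genes ZNF326 and ZNF549, with r from 0.998 to 1.00 and log2 changes of 1.25, 0.88, 0.41, 0.63 and 0.42. Most like KEAP1 were TTPAL, ERH, the H/ACA ribonucleoprotein gene NOP10, the readthrough gene LY75-CD302 and MCEMP1, a membrane protein gene of mast cells and monocytes, with r from 0.995 to 0.998 and log2 changes of 0.99, 0.85, 0.45, 0.55 and 1.00. These correlations describe 6 arrays that fall into 2 groups, so any gene with a clean difference between the groups scores high: of 8444 genes compared, 1198 had r above 0.9 with PEBP1, 1384 with CHUK and 1185 with KEAP1.

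Of 17 listed partners 9 had a value, of which 2, CHUK and KEAP1, rose and 7 did not pass the test. That is 22.2% of the partners measured, against 20.2% of all genes, and their median log2 change was 0.03, against 0.02 over all genes. This share lies near the background and is no result about the partners as a group. MAP3K14, which encodes NIK, the kinase that activates IKK alpha, stood at 5.65, 5.59 and 5.53 in RKIP shRNA cells and at 5.40, 5.48 and 5.33 in control cells, a log2 difference of 0.19 ± 0.07 (SE, adjusted p = 0.124 by limma). MAP3K7, which encodes the kinase TAK1 upstream of IKK, stood at 9.60, 9.61 and 9.68 in RKIP shRNA cells and at 9.49, 9.44 and 9.50 in control cells, a difference of 0.16 ± 0.06 (SE, adjusted p = 0.142). In both genes the groups did not overlap, as for 37.9% of all genes, and neither passed. MAP3K7 did pass with a trended and robust prior (adjusted p = 0.022) and with an ordinary t statistic (adjusted p = 0.044).

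The remaining partners gave intervals that include 0. MAP2K1, the MEK kinase gene whose activation RKIP restrains, had a log2 difference of -0.01 with a 95% interval from -0.19 to 0.17. For the kinase gene GSK3B the interval ran from -0.17 to 0.22 and for the transcription factor gene STAT3 from -0.13 to 0.18. MAP1LC3B, which encodes the autophagosome protein LC3B, had an interval from -0.32 to 0.20. ALOX15, the lipoxygenase that RKIP is known to direct towards membrane lipids in ferroptosis, was dimmer than the median row in both groups, with an interval from -0.36 to 0.19. Among the other listed partners, BRAF, IKBKB, TRAF6, GRK2, PRKCA and PRKCZ were not analysed here.

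**Figure D3:**
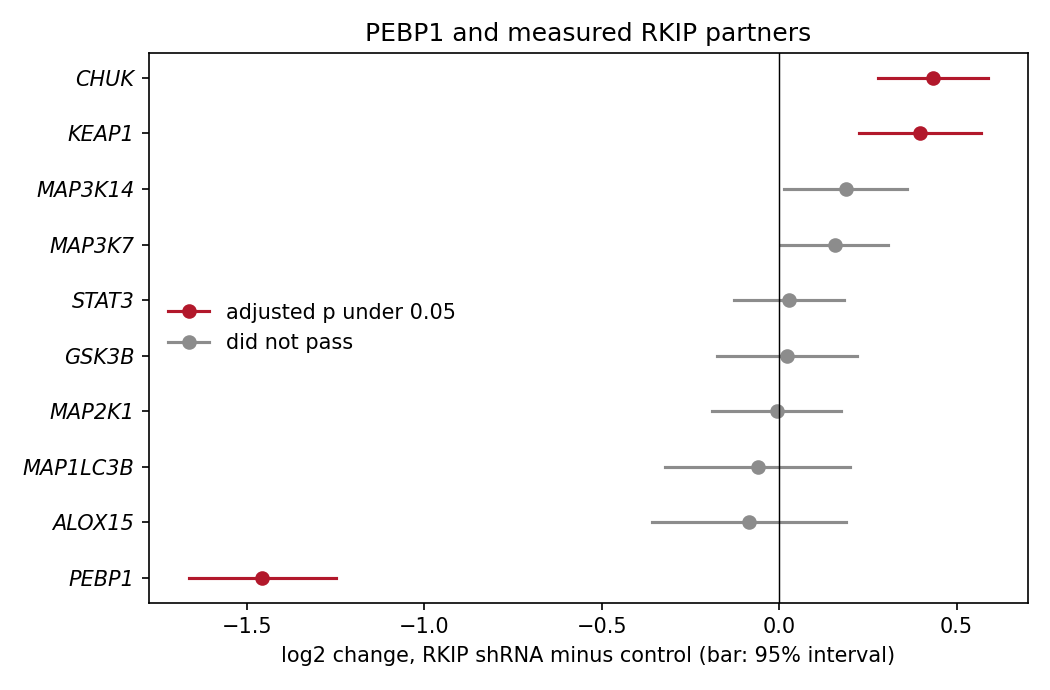
Log2 change, RKIP shRNA minus control (horizontal axis), of the 9 measured partners of RKIP and of PEBP1, with 95% intervals as bars. CHUK and KEAP1 (red) passed the test as higher and PEBP1 as lower, while the other 7 partners (grey) lie between -0.09 and 0.19 and did not pass.

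The relatives of PEBP1 and the factors that control its gene were read beside it. MRPL38, a mitochondrial ribosomal protein with a PEBP-like domain, stood at 7.48, 7.34 and 7.35 in RKIP shRNA cells and at 7.13, 6.91 and 7.14 in control cells. It rose by 0.33 ± 0.09 (log2, SE, limma adjusted p = 0.041) but did not pass when any 1 of the 6 arrays was left out, with adjusted p from 0.066 to 0.125. PEBP4, a paralogue of PEBP1, was below the median of all rows in both groups and differed by -0.08. Of 7 measured regulators of the RKIP gene, 1 fell and 6 did not pass, or 14.3% called, near the 20.2% of all genes. SP1, a general activator of GC-rich promoters, stood at 9.58, 9.62 and 9.55 in RKIP shRNA cells and at 9.87, 9.89 and 9.89 in control cells with a log2 change of -0.30 (limma adjusted p = 0.0156, and up to 0.059 without control replicate 2 or 3 or RKIP shRNA replicate 1). SNAI1 and EZH2, which encode repressors of the RKIP gene in carcinoma cells, differed by -0.19 and 0.08 (adjusted p = 0.282 and 0.491).

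Around CHUK, genes listed as upstream of IKK or related to it moved both ways. Of the IKK complex itself, CHUK alone was among the members measured. Of 15 measured members of this list, CHUK included, 2 rose, 3 fell and 10 did not pass, or 33.3% called against 20.2% of all genes, with a median log2 change of 0.02. The count includes CHUK, which was chosen with earlier results known. The gene that rose beside CHUK was TBK1, a kinase related to the IKKs that drives interferon induction, at 8.32, 8.19 and 8.31 in RKIP shRNA cells and at 8.01, 7.71 and 7.92 in control cells (log2 change 0.39 ± 0.10, adjusted p = 0.028). TBK1 did not pass without control replicate 2 or 3 or without RKIP shRNA replicate 1 or 3, with adjusted p up to 0.090. TRAF5, an adaptor of TNF receptor family members, was at 65.9% of control, a log2 change of -0.60, at 5.73, 5.45 and 5.60 in RKIP shRNA cells and at 6.11, 6.19 and 6.29 in control cells (adjusted p = 0.00516). It passed without any 1 array too, with adjusted p up to 0.023. CYLD, a deubiquitinase that restrains NF-kB signalling, and TAB2, an adaptor of TAK1 named here after its value was seen, fell by 0.27 and 0.24 but did not pass when any 1 array was left out, with adjusted p from 0.061 to 0.091 for CYLD and from 0.054 to 0.110 for TAB2. The number of list members that passed was 3 without control replicate 1 or RKIP shRNA replicate 2 and 2 without any 1 of the other arrays, CHUK being among them each time.

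The NF-kB subunit genes also split. NFKB2, whose precursor protein is processed under the control of NIK and IKK alpha, stood at 5.85, 5.86 and 5.74 in RKIP shRNA cells and at 6.30, 6.11 and 6.32 in control cells. It fell by 0.43 ± 0.08 (log2, SE, limma adjusted p = 0.012), with adjusted p up to 0.047 on leaving out 1 array. NFKB1, which encodes the p105 precursor of p50, stood at 8.08, 7.98 and 8.20 in RKIP shRNA cells and at 7.62, 7.80 and 7.68 in control cells and rose by 0.39 ± 0.09 (adjusted p = 0.021). NFKB1 did not pass without control replicate 1 or 3 or without RKIP shRNA replicate 1 or 3, with adjusted p up to 0.068. RELA, REL and RELB, the subunits with transactivation domains, had log2 differences of -0.05, -0.18 and 0.19 and did not pass (adjusted p = 0.661, 0.122 and 0.413). Of 8 other listed genes that regulate NF-kB, 2 had values, BCL3 at -0.06 and the p65-destabilising factor gene COMMD1 at 0.40. Neither passed, and COMMD1 reached a limma adjusted p of 0.084. The inhibitor genes NFKBIA, NFKBIB and NFKBIE were not analysed here.

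Around KEAP1, its ligase partner CUL3 lay in the same direction without passing. CUL3, the scaffold to which KEAP1 brings its substrates, stood at 8.59, 8.51 and 8.74 in RKIP shRNA cells and at 8.27, 8.30 and 8.42 in control cells. The groups did not overlap, as for 37.9% of all genes, and the log2 difference was 0.28 ± 0.09 (SE, limma adjusted p = 0.058). It passed with quantile normalisation (adjusted p = 0.043), array weights (0.048), a trended and robust prior (0.00799) and dim rows left out (0.026), and in 0 of 6 fits that left out 1 array. CAND1, which exchanges the adaptors on cullins, and COPS5, the deneddylase subunit of the COP9 signalosome, differed by -0.12 and 0.05 (adjusted p = 0.228 and 0.678). With an ordinary t statistic CAND1 passed as lower (adjusted p = 0.022) and CUL3 did not pass (0.102). KEAP1 itself was the 1 of 4 measured ligase genes that passed, against 20.2% of all genes, which is no result about the ligase.

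Of 10 measured genes whose proteins are reported to bind KEAP1, 3 rose, 1 fell and 6 did not pass, against 10.0% higher and 10.2% lower over all genes, with a median log2 change of 0.18. The transcript of the main substrate did not differ beyond the spread: NFE2L2, which encodes NRF2, stood at 8.18, 7.96 and 8.17 in RKIP shRNA cells and at 8.02, 8.09 and 7.98 in control cells, with a 95% interval of the log2 difference from -0.12 to 0.27. DPP3, a dipeptidyl peptidase that competes with NRF2 for KEAP1, stood at 8.65, 8.67 and 8.64 in RKIP shRNA cells and at 7.68, 7.87 and 7.77 in control cells. It rose 1.84-fold, or by 0.88 ± 0.07 (log2, SE; adjusted p = 0.000600), and passed in all 6 fits that left out 1 array. MAD2L1, a spindle checkpoint gene, rose by 0.51 (adjusted p = 0.00827), and BCL2, the inhibitor of apoptosis, fell by 0.36 (adjusted p = 0.00777). SQSTM1, which encodes the autophagy receptor p62 that sequesters KEAP1, rose by 0.33 (adjusted p = 0.034) but did not pass when any 1 array was left out, with adjusted p from 0.057 to 0.104. The small MAF genes MAFF and MAFG, whose proteins pair with NRF2, differed by -0.25 and 0.16 and did not pass. Of 27 listed NRF2 target genes 13 had a value, of which 5 rose and 8 did not pass, with a median log2 change of 0.22. That is 38.5% called, against 20.2% of all genes in either direction and 10.0% as higher. The list was chosen with earlier results of these arrays known, and NQO1, GCLC, GCLM and SLC7A11 were not analysed here. PRDX1, a peroxiredoxin, stood at 11.07, 10.88 and 11.10 in RKIP shRNA cells and at 9.86, 10.01 and 9.94 in control cells and rose to 211% of control (adjusted p = 0.000537). SRXN1, which encodes sulfiredoxin, the enzyme that reactivates peroxiredoxins, stood at 7.10, 6.89 and 6.97 in RKIP shRNA cells and at 6.09, 6.41 and 6.27 in control cells (adjusted p = 0.00362). TALDO1, a pentose phosphate enzyme gene, rose by 0.39 (adjusted p = 0.00740). TXN, the thioredoxin gene, rose by 0.30 and the glutathione transferase gene MGST1 by 0.27. TXN passed in 1 and MGST1 in 0 of 6 fits that left out 1 array. HMOX1, the haem oxygenase gene that is a classical NRF2 target, named here after its value was seen, did not pass, with a log2 difference of -0.13 (adjusted p = 0.474).

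**Figure D4:**
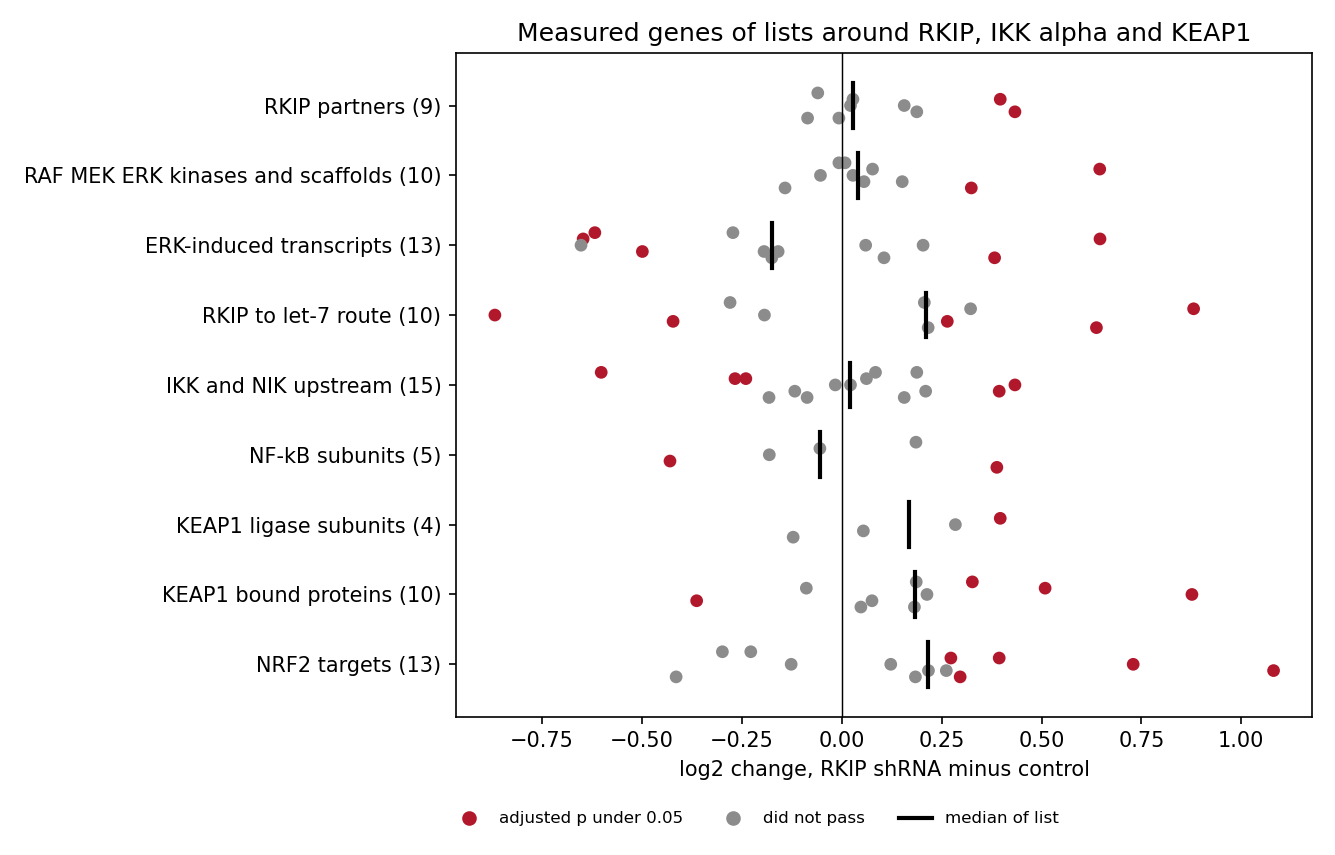
Log2 change, RKIP shRNA minus control (horizontal axis), of each measured gene of 9 lists (rows, number of genes in brackets), red where the adjusted p was under 0.05, with the median of each list as a black bar. Called genes stand on both sides of 0 in the IKK and NIK list and among NF-kB subunits, and on the right side in the list of NRF2 targets.

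On the Raf side of RKIP, of 10 measured RAF, MEK and ERK kinases and scaffolds, 2 rose and 8 did not pass, a share near the 20.2% of all genes and no result about the group, with a median log2 change of 0.04. PEA15, which encodes a protein that holds ERK in the cytoplasm, stood at 8.70, 8.68 and 8.63 in RKIP shRNA cells and at 8.11, 8.03 and 7.93 in control cells and rose by 0.65 ± 0.07 (log2, SE, limma adjusted p = 0.00173). The other was the kinase gene ARAF, at 9.05 ± 0.05 in RKIP shRNA cells and 8.73 ± 0.06 in control cells (SD, n = 3 each; log2 change 0.32, adjusted p = 0.017, and 0.056 without control replicate 1 or 3). Of 13 measured transcripts that ERK activity induces, 2 rose, 3 fell and 8 did not pass, or 38.5% called against 20.2% of all genes, with a median of -0.17. ETV5, an ETS factor gene that commonly follows ERK activity, fell by 0.50 (adjusted p = 0.0129). DUSP6, the phosphatase that dephosphorylates ERK, stood at 9.30, 9.43 and 9.54 in RKIP shRNA cells and at 10.04, 10.13 and 10.04 in control cells (adjusted p = 0.00264). IER2, an immediate early gene, fell by 0.62, while FOSL1, an AP-1 subunit gene, rose by 0.65 and CCND1, the cyclin D1 gene named after its value was seen, by 0.38. CCND1 passed in 1 of 6 fits that left out 1 array, that without control replicate 3. Of 10 measured genes on the route described from RKIP through MYC, LIN28 and let-7 in breast cancer cells, 3 rose, 2 fell and 5 did not pass, where 20.2% of all genes passed, with a median of 0.21. HMGA2, a chromatin protein gene repressed by let-7, stood at 5.51, 5.32 and 5.12 in RKIP shRNA cells and at 6.16, 6.07 and 6.32 in control cells. LIN28A and LIN28B were among 4 genes of this list that were dimmer than the median row in both groups. CCL5 and SPP1, genes of a chemokine and of osteopontin, rose by 0.64 and 0.88, and MYC, a transcription factor gene, fell by 0.42 (log2, limma adjusted p = 0.00155, 0.00606 and 0.00826). CXCR4, a chemokine receptor gene named after its value was seen, rose by 0.26 (limma adjusted p = 0.031). It passed in 0 of 6 fits that left out 1 array. SPP1 was dimmer than the median row in control cells, so the size of its difference is uncertain.

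Under the other settings the 3 genes kept their direction and their call. The level of PEBP1 ranged from 34.4% to 37.7% of control, that of CHUK from 132% to 137% and that of KEAP1 from 128% to 135%. The highest adjusted p among the 15 refits was 0.00488 for PEBP1, 0.0238 for CHUK and 0.0427 for KEAP1.

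**Figure D5:**
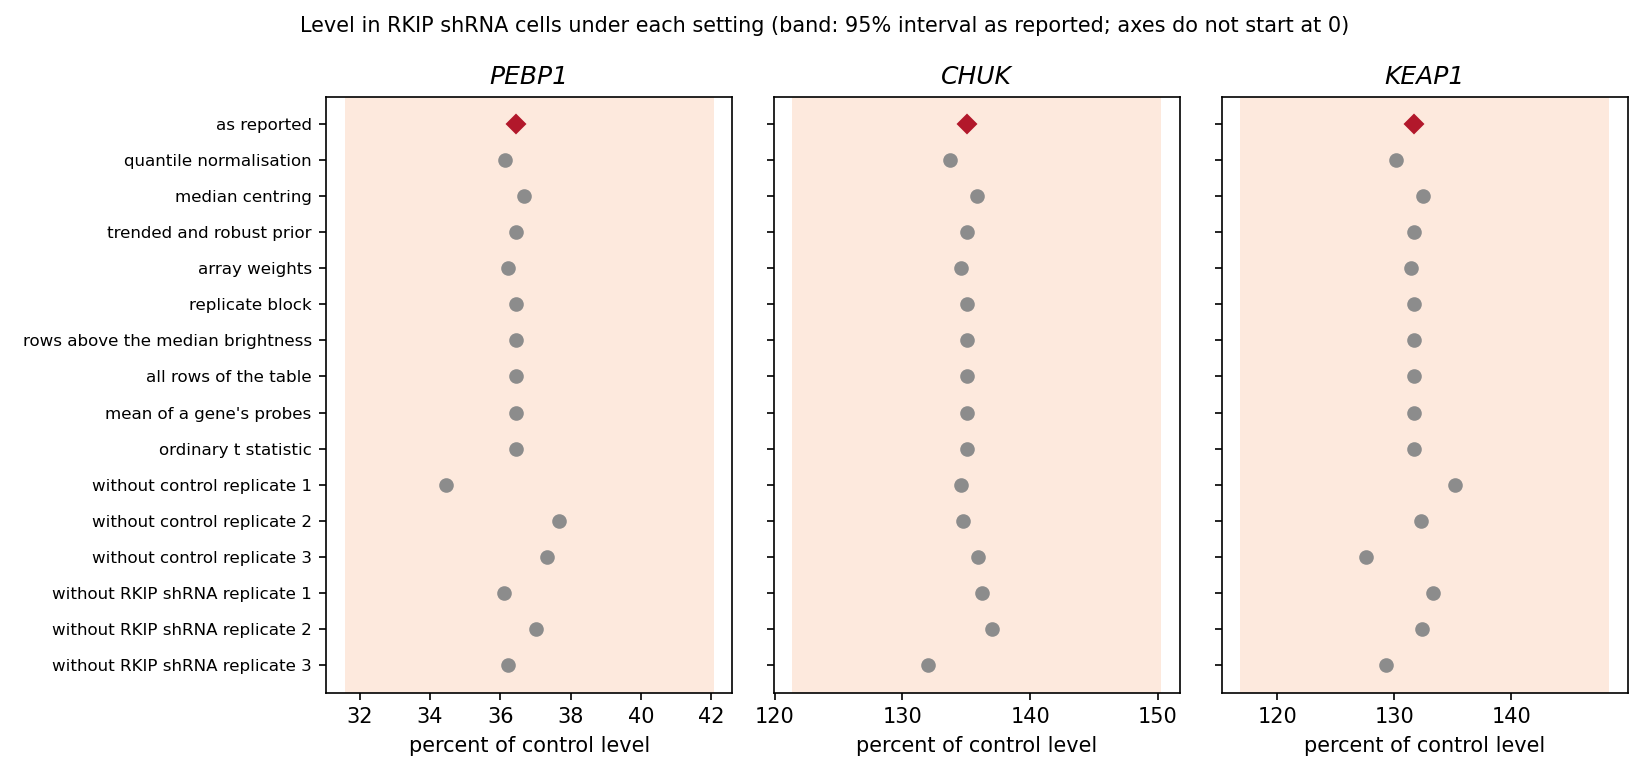
Level of PEBP1, CHUK and KEAP1 in RKIP shRNA cells as percent of the control level (horizontal axes, not starting at 0) under the reported setting (red diamond) and each of 15 refits (grey points), with the reported 95% interval as a shaded band. All points lie inside the bands, and the points farthest from the reported value are those without control replicate 1 for PEBP1 and without control replicate 3 for KEAP1.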

How the data were processed

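One table of 53617 rows and 6 arrays was used. The deposited values are on a log2 scale, as read from their range of 0.72 to 14.0. The authors' summarisation, background correction, normalisation and build were not given in the sources used here. There were no detection calls. A gene was called dim below the median of all rows, 4.07. Rows were named through the array's annotation: 16098 rows carried 1 symbol, 0 carried several and 37519 were unnamed. Where several probes named a gene, the brightest on average was kept, which gave 14884 genes. The comparison, RKIP shRNA minus control, was fitted over all genes in R 4.3.3 by limma 3.58.1 (lmFit, eBayes; tested on simulated data) with Benjamini-Hochberg adjustment and a threshold of 0.05. Percent of control is 100 times 2 to the power of the log2 change. No array date or batch was in the labels. The number of arrays limits the precision. Arrays of a group correlated at r = 0.994 to 0.996 across genes and arrays of different groups at 0.987 to 0.988. The 3 genes and 19 gene lists were chosen with earlier results of these data known. Genes were named by a rule: all measured members of the partner, subunit, ligase and family lists, and of each other list up to 4 called members by smallest p or, with none called, the 2 with the largest change. SNAI1, EZH2, NFE2L2, HMOX1, LIN28A, LIN28B, CXCR4, TAB2, TXN, CCND1, CD86, CD4, MPO, CD14, EPCAM and DCN were named outside it, after their values were seen. The alternatives were other normalisations, priors, weights, row filters, probe rules and thresholds, the replicate number as a block, and leaving out each array. Figures were drawn with matplotlib 3.10.9.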

Additional observations from a re-analysis of the deposited data

How the results depend on the processing

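PEBP1, CHUK and KEAP1 kept their direction and passed the test in all 15 refits and at an adjusted p under 0.01. The count of genes that passed, 3010, was 1774 when all rows of the table were tested, 1472 at an adjusted p under 0.01 and 1987 to 2397 when 1 array was left out. Of the 15 genes listed around IKK, 5 passed, against 3 with the replicate number as a block, 2 with all rows, 2 at an adjusted p under 0.01 and 2 to 3 when 1 array was left out. Of the 4 KEAP1 ligase genes, 1 passed, against 2 with quantile normalisation, a trended and robust prior, array weights or dim rows left out, KEAP1 and CUL3, both higher. With an ordinary t statistic 2 also passed, but these were KEAP1 as higher and CAND1 as lower. Of the 10 genes whose proteins bind KEAP1, 4 passed, against 7 with dim rows left out. Fewer arrays or more rows entered some of these fits, and for the others the cause was not tested. Replicate numbers gave no pairing: deviations of same-numbered arrays correlated at 0.02, 0.00 and -0.02, and with the block 2142 genes passed. No scaling moved the median log2 change of all genes beyond 0.03. The number of arrays, 3 per group, limits the precision.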
